A study of Mus musculus with 4 samples.

Results

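Among the reads from mouse embryonic stem cells (mESCs) given Cas9, those described here aligned to the target amplicon without any insertion or deletion. They were chosen as the alleles whose alignment had no gap inside either the read or the reference, with gaps at the ends of an alignment ignored, where an allele is a distinct aligned sequence with its count of reads. They made up 3777 of 76510 alleles and 305208 of 1636791 aligned reads over the 4 libraries. Site 7 held 214 of 19003 alleles in replicate 1 and 347 of 24998 in replicate 2, and Site 9 held 1691 of 17863 and 1525 of 14646.

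The libraries came from E14 mESCs, a male line of strain 129/Ola grown without feeders in medium with LIF. Plasmids of the pX series carrying Cas9 and 1 sgRNA were introduced by lipofection, the cells were selected with puromycin or for GFP, and the target was amplified from genomic DNA of the pool. The sgRNA cut at Site 7 in 2 libraries and at Site 9 in 2, and the groups shared the line and the nuclease. Which selection and which day of harvest each library had is not stated in the labels, so these cannot be told apart from the site. Cells that took up no plasmid, or expressed little Cas9, may remain in such a pool, and no untreated library was analysed here. Hence changes made at the cut could not be set against the background of the same amplicons in untreated cells.

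Cas9 opens both strands 3 bp from the PAM, the short motif that it needs beside its target. End joining can restore the sequence exactly, after which the site can be cut again, or it can leave a small change that the sgRNA no longer pairs with. A read without an insertion or deletion may therefore come from a site that was never cut, from one that was rejoined exactly, or from one where only bases were replaced. A base can also be replaced by a polymerase during PCR or by a wrong base call, and such errors are not tied to the cut. The first and second of these sources give the same read and cannot be told apart here.

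On mm9 the Site 7 amplicon lies at chr16:92520087-92520332 (246 bp) and the Site 9 amplicon at chr6:92370046-92370253 (208 bp). The Site 7 cut falls between bases 92520184 and 92520185 in an intron of Clic6 (ENSMUSG00000022949.3), 8120 bp from the nearest exon, although the labels name the site after Runx1. That of Site 9 separates bases 92370121 and 92370122 within a Prickle2 intron (gene ENSMUSG00000030020.7, on the minus strand). It lies 15 bp from a coding exon at chr6:92370137-92370340. Positions below are counted from 1 at the first base of each amplicon, and the cut follows base 98 at Site 7 and base 76 at Site 9. A substitution is written as the reference base, its position and the base of the read.

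The 40 bases around each cut are shown first with the 20-base protospacer in capitals, and then for the most abundant alleles with substitutions near the cut, where capitals mark the replaced bases. All are given on the plus strand of mm9, at chr16:92520165-92520204 for Site 7 and chr6:92370102-92370141 for Site 9, with 20 bases on each side of the cut. The PAM lies to the left of the protospacer at Site 7, on the minus strand, and to the right at Site 9.
Site 7 reference: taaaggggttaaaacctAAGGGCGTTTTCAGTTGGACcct
Site 7 G98A: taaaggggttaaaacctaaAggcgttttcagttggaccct
Site 7 G98C: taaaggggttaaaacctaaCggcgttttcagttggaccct
Site 7 G98A and G99C: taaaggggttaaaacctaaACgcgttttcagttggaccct
Site 7 A97C and G98A: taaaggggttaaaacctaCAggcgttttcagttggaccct
Site 7 G99C: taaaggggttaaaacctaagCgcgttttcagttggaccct
Site 9 reference: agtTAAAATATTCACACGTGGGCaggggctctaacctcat
Site 9 G77T: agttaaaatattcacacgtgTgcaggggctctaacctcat
Site 9 G77A: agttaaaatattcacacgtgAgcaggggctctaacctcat
Site 9 G76T and G77A: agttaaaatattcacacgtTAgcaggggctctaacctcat
Site 9 T75G: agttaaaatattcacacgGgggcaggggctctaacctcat

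Reads without an insertion or deletion were rare at Site 7 and common at Site 9. At Site 7 they were 3675 of 397547 aligned reads in replicate 1 (0.924%, 95% Wilson interval 0.895 to 0.955) and, in replicate 2, 5591 of 411023 (1.36%, 1.33 to 1.40). At Site 9 they were 152014 of 447620 (34.0%, 33.8 to 34.1) and 143928 of 380601 (37.8%, 37.7 to 38.0). The means were 1.14% ± 0.308 (SD, n = 2) and 35.9% ± 2.73 (SD, n = 2), and the libraries of the sites did not overlap. With 2 libraries on each side the exact two-sided permutation test cannot give a p below 0.333, which is the value it gave. The same smallest p applies to every comparison of the sites below, so the size of each difference is set beside the spread between libraries. The labels do not say whether replicates were separate transfections, and that spread may be technical.

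The composition of these reads was opposite at the sites. At Site 7 only 468 of the indel-free reads of replicate 1 (12.7%) and 1064 of those of replicate 2 (19.0%) were identical to the reference, whereas 81.7% and 76.1% carried substitutions within 10 bp of the cut and nowhere else. At Site 9 92.4% and 93.8% were identical to the reference, and 3.34% and 2.03% carried substitutions within 10 bp only. The reference-identical share averaged 15.9% ± 4.45 at Site 7 versus 93.1% ± 0.951 at Site 9 (SD, n = 2 each; exact permutation p = 0.333). Reads substituted beyond 10 bp only were 1.39% and 0.805% at Site 7 versus 3.98% and 4.02% at Site 9, and reads substituted in both places were 4.14% and 4.06% versus 0.232% and 0.165%. Any substitution beyond 10 bp was therefore carried by 5.52% and 4.86% of indel-free reads at Site 7 versus 4.21% and 4.18% at Site 9.

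**Figure D1:**
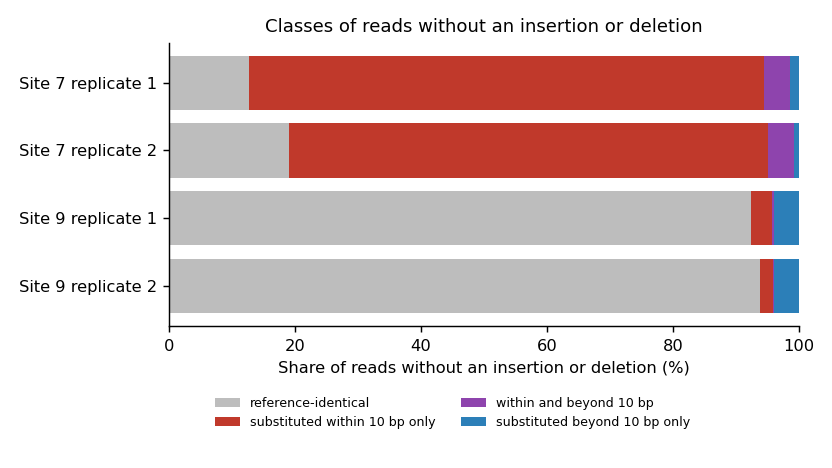
Horizontal bars divide the indel-free reads of each library (percent) into reference-identical reads and reads with substitutions within 10 bp of the predicted cut only, beyond 10 bp only, or in both places. Grey, the reference-identical share, is 12.7% and 19.0% at Site 7 versus 92.4% and 93.8% at Site 9.

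Over all aligned reads, the reference sequence was recovered in 0.118% and 0.259% of Site 7 reads and in 31.4% and 35.5% of Site 9 reads. Reads substituted within 3 bp of the cut, in contrast, took a similar share of all aligned reads at both sites. They were 0.794% and 1.09% of aligned reads at Site 7 (mean 0.940% ± 0.207, SD, n = 2) versus 1.10% and 0.709% at Site 9 (mean 0.905% ± 0.277, SD, n = 2), and the libraries overlapped (exact permutation p = 1). For every 100 reads with an insertion or deletion there were 0.801 and 1.10 such reads at Site 7 versus 1.67 and 1.14 at Site 9, where both Site 9 values were higher (means 0.951 and 1.40, exact permutation p = 0.333). These denominators were chosen after the data were seen.

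As a share of the indel-free reads themselves, reads substituted within 3 bp of the cut were 85.9% and 79.9% at Site 7 (mean 82.9% ± 4.21, SD, n = 2) versus 3.24% and 1.87% at Site 9 (mean 2.56% ± 0.967, SD, n = 2). The difference of 80.3 percentage points was far larger than the spread between replicates (exact permutation p = 0.333). The substitution rate over the whole read was 5.66 and 5.42 per 1000 bases at Site 7 versus 0.632 and 0.502 at Site 9, and was 9.77 times higher at Site 7 on average. With each distinct allele counted once the direction turned, to 11.5 at Site 7 versus 14.2 at Site 9.

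The substitutions were concentrated at the cut in all 4 libraries. Within 3 bp of it the rate was 185 and 184 per 1000 bases at Site 7 versus 9.11 and 5.59 at Site 9. Beyond 10 bp it was 0.395 and 0.322 at Site 7 versus 0.316 and 0.319 at Site 9, so the far rates of the sites were close while the near rates differed by more than an order of magnitude. These rates are over indel-free reads, most of which were identical to the reference at Site 9. Over all aligned reads the share of near-substituted reads was similar, with means of 0.940% at Site 7 and 0.905% at Site 9. The near rate was 468 and 572 times the far rate at Site 7 versus 28.8 and 17.5 times at Site 9. The geometric mean over libraries was 108 (higher near the cut in 4 of 4 libraries, exact two-sided sign-flip permutation p = 0.125, the smallest that 4 libraries allow). Leaving out 1 library moved this mean to 66.2 without Site 7 replicate 1, 61.9 without Site 7 replicate 2, 168 without Site 9 replicate 1 and 198 without Site 9 replicate 2. It was 14.8 with each distinct allele counted once, 15.6 in reads called unmodified, 37.2 with a near window of 10 bp and 215 with one of 1 bp. Reads called unmodified hold no substitution at the bases next to the cut, so part of that fall was set by the call.

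The rate fell steeply with distance. At Site 7 it was 470 and 431 per 1000 bases at the bases next to the cut, 55.0 and 82.5 at the next, 30.6 and 38.7 at 3 bp, 10.1 and 6.80 at 4 to 5 bp, and 3.10 and 1.16 at 6 to 10 bp. At 11 to 20 bp it was 0.150 and 0.224, which came from only 11 and 25 substituted bases. At Site 9 it was 16.1 and 8.35 at the bases next to the cut, 0.662 and 0.568 at 6 to 10 bp, and 0.197 and 0.205 at 11 to 20 bp. Further out the rate was higher again, at 0.346 and 0.355 at 41 to 80 bp and 0.372 and 0.366 beyond 80 bp at Site 9. At Site 7 the corresponding values were 0.548 and 0.282, and 0.384 and 0.468. Positions far from the cut are also those nearest the ends of the amplicon, and the part of either in these values was not tested.

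**Figure D2:**
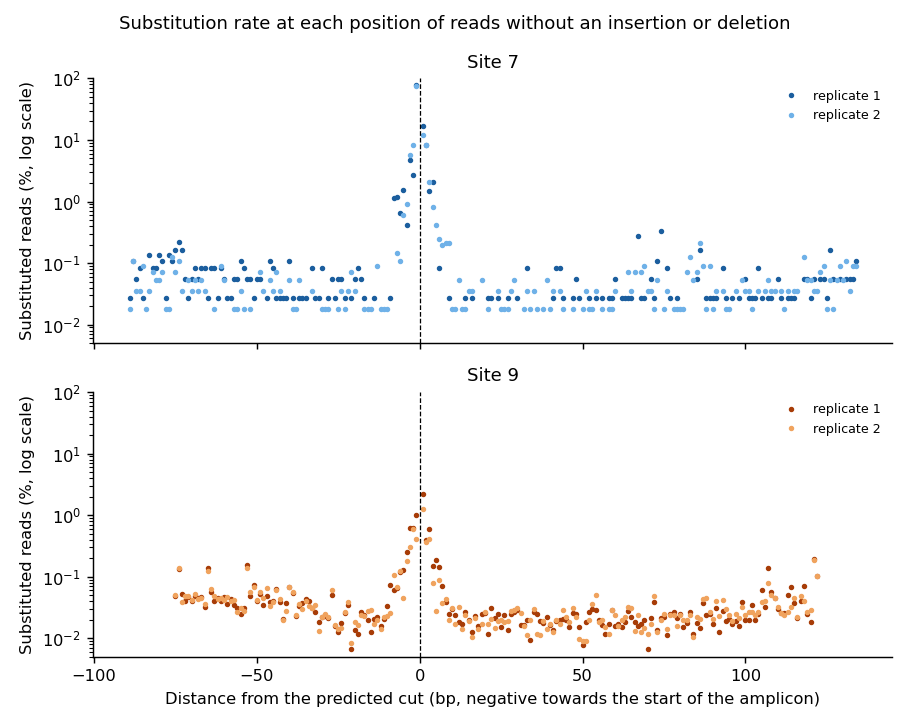
Each point is 1 position of the amplicon, with the share of indel-free reads that were substituted there (percent, logarithmic axis) against its distance from the predicted cut in bp, for both replicates of each site. The rate peaks at a base next to the cut in every library, at -1 at Site 7 and at 1 at Site 9. It reaches 76.9% and 74.0% at Site 7 versus 2.20% and 1.27% at Site 9, and positions without a substitution are not drawn.

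The highest position was the same in both replicates of a site, but the rates at other positions near the cut could differ several-fold. Position 97 of Site 7 had 2.69% and 8.23%, and position 76 of Site 9 had 1.02% and 0.404%. Across the 20 positions within 10 bp the rates of the replicates correlated with a Pearson's r of 0.99 at Site 7 versus 0.96 at Site 9, which is a description, since the positions share their reads and the highest base carries most of the correlation. Across the 177 positions beyond 10 bp at Site 9 the correlation was 0.94. Across the 203 such positions at Site 7 it was 0.26, where 63 positions of replicate 1 and 51 of replicate 2 had no substituted read, whereas no position of Site 9 was without one.

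At each site the 5 positions with the highest mean rate all lay within 3 bp of the cut. At both sites the highest was the first base on the PAM side. Position 98 (chr16:92520184) was substituted in 2825 of 3675 reads of Site 7 replicate 1 (76.9%, 95% Wilson interval 75.5 to 78.2) and, for replicate 2, in 4138 of 5591 (74.0%, 72.8 to 75.1). Position 77 (chr6:92370122) was substituted in 3339 of 152014 reads of Site 9 replicate 1 (2.20%, 2.12 to 2.27) and, for replicate 2, in 1824 of 143928 (1.27%, 1.21 to 1.33). The intervals treat reads as independent and do not cover the spread between libraries.

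The other Site 7 positions were 99 on the far side of the cut from the PAM, at 17.1% and 12.2%, and 100, at 8.30% and 8.26%. Positions 97 and 96 on the PAM side had 2.69% and 8.23%, and 4.65% and 5.71%, so that position 97 was the least alike between replicates. At Site 9 position 76 had 1.02% and 0.404%, position 75 had 0.626% and 0.602%, position 79 had 0.606% and 0.409%, and position 74 had 0.617% and 0.302%. Replicate 2 was lower than replicate 1 at each of these Site 9 positions, and position 75 differed the least.

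The first PAM-side base was substituted 4.48 and 6.09 times as often as the first base on the other side at Site 7, and 2.15 and 3.14 times as often at Site 9. Over 3 bases on each side the ratios were 3.13 and 3.91 at Site 7 versus 1.41 and 1.57 at Site 9 (geometric mean 2.28, above 1 in 4 of 4 libraries, exact sign-flip permutation p = 0.125). The ratio was higher in both Site 7 libraries than in both Site 9 libraries, with means of 3.52 ± 0.555 and 1.49 ± 0.108 (SD, n = 2 each, exact permutation p = 0.333). Most PAM-side substitutions in the 3-base counts were at the first base. It held 2825 of 3095 and 4138 of 4917 at Site 7, and 3339 of 4867 and 1824 of 2948 at Site 9. At Site 7 the second base was lower on the PAM side than on the other in replicate 1 (2.69% versus 8.30%). In replicate 2 the sides were nearly equal (8.23% versus 8.26%). The third base of Site 7 was higher on the PAM side (4.65% and 5.71% versus 1.47% and 2.04%). At Site 9 the second base was lower on the PAM side in replicate 1 (0.399% versus 0.626%). The third base there had 0.606% and 0.409% on the PAM side versus 0.617% and 0.302% on the other. No ratio was computed without the first base, so the 3-base ratios do not show an excess on the PAM side beyond that base. The sides were compared after the data were seen. At Site 7 the PAM side is to the left of the cut and at Site 9 to the right, so the orientation cannot be told apart from the site.

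**Figure D3:**
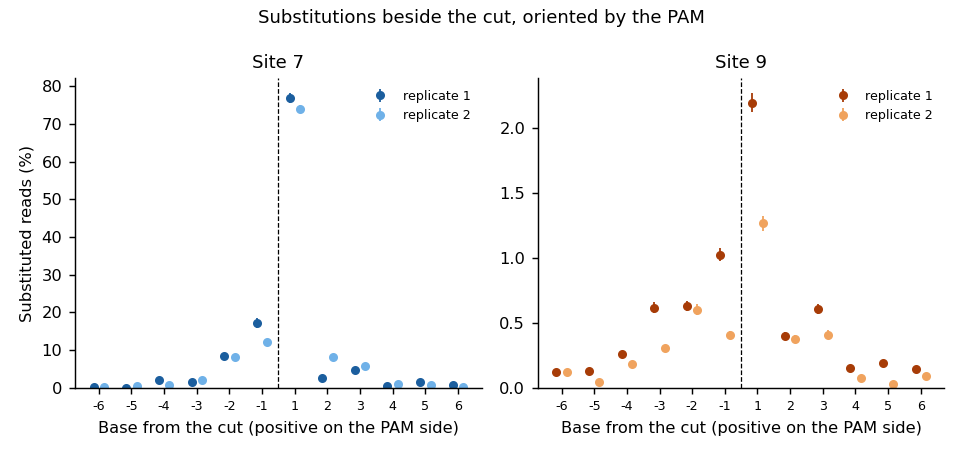
Points give the share of indel-free reads substituted at each of the 6 bases on either side of the cut (percent, with 95% Wilson intervals), with bases on the PAM side numbered from 1 and those on the other side from -1. The vertical scales differ: base 1 is highest in every library, at 76.9% and 74.0% at Site 7 versus 2.20% and 1.27% at Site 9.

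A single allele dominated at Site 7. G98A alone, with no other substitution in the read, made up 2127 of 3675 indel-free reads of replicate 1 (57.9%) and 2506 of 5591 of replicate 2 (44.8%), so it was more abundant than the reference in both libraries. It was 0.535% of all aligned reads in replicate 1. The allele with G98A and G99C had 7.13% and 2.29% of indel-free reads, and the one with A97C and G98A had 0.816% and 4.02%. G98C alone had 2.37% and 7.06%, and G99C alone had 1.44% and 1.68%. G98A was first in both replicates, whereas the order of the alleles behind it changed between them. Each of the 5 alleles replaced bases of the protospacer near the PAM, as their sequences above show.

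No allele dominated among the substituted reads of Site 9. G77T alone had 821 of 152014 reads in replicate 1 (0.540%, 95% Wilson interval 0.504 to 0.578) and, in replicate 2, 441 of 143928 (0.306%, 0.279 to 0.336). G77A alone had 0.327% and 0.267%, the allele with G76T and G77A had 0.329% and 0.101%, and T75G alone had 0.131% and 0.186%. The fifth allele by mean share, G197C with 0.142% and 0.138%, was 121 bp from the cut and is described with the far positions. The 4 alleles at the cut each replaced 1 or 2 bases, again within the protospacer.

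Grouping reads by their substitutions within 10 bp of the cut gave 31 and 88 distinct combinations at Site 7 versus 201 and 174 at Site 9, counted over reads with at least 1 substitution within 3 bp. The most abundant combination took 70.8% and 59.1% of these reads at Site 7 versus 17.4% and 17.1% at Site 9. The 5 most abundant took 87.5% and 79.7%, and 49.5% and 52.2%. Site 7 replicates shared 16 combinations, which were 51.6% of those of replicate 1 and 18.2% of those of replicate 2 and held 94.2% and 84.9% of the reads. Site 9 replicates shared 44, or 21.9% and 25.3% of the combinations, with 73.4% and 78.2% of the reads.

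Reads that changed more than 1 base near the cut were more frequent at Site 9, at 56.1% and 46.2% of the near-substituted reads, than at Site 7, at 23.0% and 25.7%. In these reads the replaced bases formed 1 contiguous run in 83.4% and 68.6% at Site 7 and in 43.1% and 61.3% at Site 9. Substitutions lay on both sides of the cut in 62.8% and 47.5% at Site 7 and in 48.3% and 51.2% at Site 9. From the first to the last substitution within 10 bp the span was 1 bp in 77.0% and 74.3% of near-substituted reads at Site 7 and in 43.9% and 53.8% at Site 9. It was 4 bp or more in 4.85% and 7.30%, and in 21.7% and 19.5%. The 4 libraries split by site in each of these spans, but no test was run on them. An alignment without gaps cannot tell a replaced stretch from a deletion that was filled by an insertion of the same length.

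**Figure D4:**
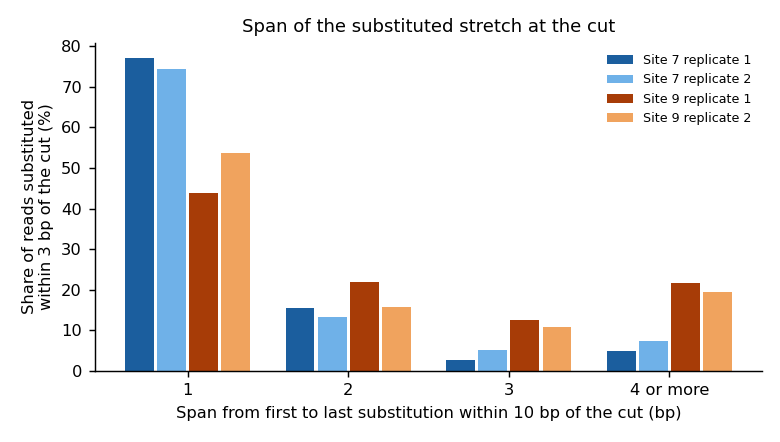
Bars from 0 give the share of reads substituted within 3 bp of the cut (percent) by the span in bp from the first to the last substitution within 10 bp of it, for each library. A span of 1 bp holds 77.0% and 74.3% at Site 7 against 43.9% and 53.8% at Site 9, and a span of 4 bp or more holds 4.85% and 7.30% against 21.7% and 19.5%.

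The kinds of base change also differed at the cut. Transitions, which exchange a purine for a purine or a pyrimidine for a pyrimidine, were 74.2% and 70.7% of substitutions within 3 bp of the cut at Site 7 versus 36.6% and 42.3% at Site 9. The single change G98A gave 2719 of the 3032 Site 7 transitions in replicate 1 and 3542 of the 4364 in replicate 2. Of all 4084 and 6173 Site 7 substitutions within 3 bp, transitions and transversions together, G98A was the same 2719 and 3542. The higher Site 7 share thus rested on that change and does not describe the other substitutions near the cut. No share was computed without it. Beyond 10 bp transitions were 38.3% and 39.2% at Site 7 versus 39.9% and 41.1% at Site 9, so that the sites were alike away from the cut. Over the whole read the share was 69.9% and 67.7% at Site 7 versus 38.3% and 41.1% at Site 9 (means 68.8% ± 1.56 and 39.7% ± 2.01, SD, n = 2 each, exact permutation p = 0.333). In reads called unmodified, which hold no substitution next to the cut, the direction turned, with means of 33.5% and 39.99%. The reference offers only a few bases near each cut, with no T within 3 bp at Site 7 and no A at Site 9, so at each site 3 of the 12 kinds of change had no base to occur at.

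Changes are named on the plus strand of mm9. On the strand of the Site 7 protospacer, the minus strand, G to A reads as C to T. Near the Site 7 cut G to A was 72.4% and 66.8% of substitutions, followed by G to C with 15.0% and 15.1% and G to T with 4.68% and 3.64%. Changes of A gave 1.91% and 6.04% to C, 3.72% and 3.19% to T, and 0.979% and 3.39% to G. Changes of C were each below 1%. Near the Site 9 cut G to T was 36.3% and 27.9% and G to A was 33.0% and 35.9%, so their order changed between replicates. G to C had 8.17% and 6.11%, T to G had 5.51% and 11.9%, and C to A had 5.51% and 4.58%. T to A had 4.75% and 3.04%, C to G had 3.12% and 4.22%, C to T had 2.45% and 3.37%, and T to C had 1.19% and 3.002%.

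On the plus strand of mm9 the base most often put in near the cut was A, at 72.4% and 67.4% of substitutions at Site 7 versus 43.3% and 43.5% at Site 9. On the strand of the protospacer that base is T at Site 7 and A at Site 9, so in that orientation the sites differed. At Site 9 T followed closely, at 38.8% and 31.3%. The new base matched a neighbouring base of the reference in 71.2% and 63.0% of substitutions at Site 7, where G98A repeats the A at position 97. That change alone gave 2719 of the 2907 matches in replicate 1 and 3542 of the 3887 in replicate 2. The Site 7 share thus rested on it and does not describe the other substitutions there. At Site 9 it did so in 31.4% and 31.6%. No expected share was computed for these matches.

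Beyond 10 bp from the cut all 12 kinds of change occurred in every library. At Site 9 the rates ran from 0.0440 and 0.0434 per 1000 bases of the reference base for C to G up to 0.135 and 0.139 for A to G. G to C, A to T and T to A were also low, at 0.0785 and 0.0715, 0.0650 and 0.0722, and 0.0862 and 0.0786. The other 7 kinds lay between 0.113 and 0.131. At Site 7 the kinds rested on 8 to 46 substituted bases each, and C to G at 0.0576 and 0.0482 was again among the lowest. G to A, the leading change at the Site 7 cut, was 268 and 246 per 1000 within 3 bp and 0.131 and 0.147 beyond 10 bp.

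Whether indel-free reads carried more or fewer substitutions away from the cut than reads with an insertion or deletion was asked beyond 40 bp. The rate was 0.476 and 0.368 per 1000 bases in indel-free reads of Site 7 and 0.492 and 0.506 in indel-bearing reads. At Site 9 it was 0.358 and 0.361 against 0.507 and 0.498. The ratio was 0.968 and 0.727 at Site 7 versus 0.705 and 0.725 at Site 9 (geometric mean 0.774, lower in 4 of 4 libraries, exact sign-flip permutation p = 0.125). In Site 7 replicate 1 the 95% interval from counting error, 0.854 to 1.10, included a ratio of 1. The geometric mean was 0.959 (p = 0.625 in the same exact test) when indel-bearing reads were limited to those with 1 contiguous deletion. The mean ratio was then 1.02 at Site 7 and 0.913 at Site 9. With each distinct allele counted once the geometric mean was 1.39 (p = 0.5 in the same exact test). Its direction thus depended on how alleles were counted, and that of the Site 7 mean also on which indel-bearing reads were compared. The exact p ranged from 0.125 to 0.625 over all the alternatives run for this ratio. Beyond 40 bp the rates of single positions correlated between the classes of reads with a Pearson's r of 0.51 and 0.61 over 143 positions at Site 7 versus 0.70 and 0.66 over 117 positions at Site 9, as a description.

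**Figure D5:**
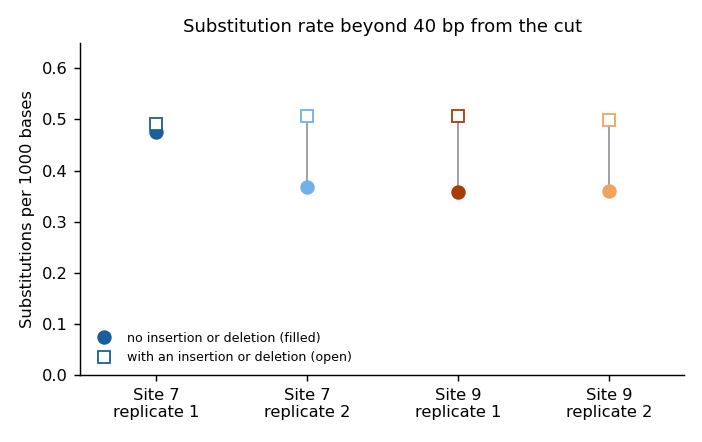
Filled circles give the substitution rate beyond 40 bp from the cut (per 1000 bases) in indel-free reads and open squares the rate in reads with an insertion or deletion, for each library. The circles lie at 0.476, 0.368, 0.358 and 0.361 and the squares at 0.492, 0.506, 0.507 and 0.498, in the order of the axis.

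The next positions lie far from the cut and were named after their values were seen. At Site 9 position 197 (chr6:92370242, in the coding exon of Prickle2) was substituted in 0.193% and 0.186% of indel-free reads and in 0.200% and 0.192% of indel-bearing reads, mostly by G197C. Position 24 had 0.158% and 0.137% in indel-free reads against 0.130% and 0.121%. Position 3, mostly by A3G, had 0.132% and 0.140% against 0.134% and 0.152%, and position 12, mostly by T12G, had 0.139% and 0.123% against 0.138% and 0.123%. These 4 rates were alike in both replicates and in both classes of reads, and each was above the median far position of 0.0243% and 0.0250%. At Site 7 position 184, mostly by A184C, had 0.163% and 0.215% in indel-free reads against 0.147% and 0.205%. Positions 165 and 172 had 0.272% and 0.327% in replicate 1, from 10 and 12 reads. In replicate 2 neither had a substituted read, and 0 of 5591 reads allows a share of up to 0.0537%. Beyond 10 bp the highest rate at a single position was 0.327% and 0.215% at Site 7 versus 0.193% and 0.186% at Site 9.

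The reads with an insertion or deletion also had substitutions beside the cut, but their alignment there depends on where the gap was placed. Position 98 was called substituted in 24.8% and 28.3% of the indel-bearing reads that had a base there, and position 77 in 20.9% and 20.8%. At Site 7 this was below the indel-free share of 76.9% and 74.0%, and at Site 9 above the indel-free share of 2.20% and 1.27%. The comparison was not tested, since the placement of a gap can create or hide a mismatch.

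The deposited tables also call each allele modified or unmodified. Among indel-free reads the call was modified in 3063 and 4347 reads at Site 7 (83.3% and 77.8%) and in 4053 and 2037 at Site 9 (2.67% and 1.42%), with means of 80.5% ± 3.96 and 2.04% ± 0.885 (SD, n = 2 each, exact permutation p = 0.333). In every library these were exactly the reads with a substitution at either base next to the cut, with 0 disagreements. Indel-free reads called unmodified therefore still included 93 and 135 reads at Site 7 (15.2% and 10.9% of those called unmodified) and 1383 and 1122 at Site 9 (0.935% and 0.791%) with a substitution within 10 bp. Reference-identical reads were 76.5% and 85.5% of those called unmodified at Site 7 versus 94.97% and 95.1% at Site 9.

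Most indel-free reads with a substitution had few. At Site 7 64.2% and 57.4% of indel-free reads had 1 substitution, 15.9% and 14.6% had 2, and 3.92% and 4.86% had 4 or more. At Site 9 5.19% and 4.82% had 1, and 0.576% and 0.484% had 4 or more. The most in a single read was 17 and 13 at Site 7 versus 21 and 33 at Site 9. Reads with 6 or more were 1.33% and 0.393% at Site 7 versus 0.217% and 0.192% at Site 9. Limiting reads to at most 5 substitutions left the share with a near-cut substitution 80.3 percentage points higher at Site 7, as in all reads.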

How the data were processed

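Genomic DNA of transfected mESC pools was amplified around the target and sequenced. The authors trimmed the reads with Trim Galore 0.3.1, aligned them to the amplicon with CRISPResso and collapsed equal alignments into alleles. The settings of that program are not given in the sources used here. The deposited count of an allele is its number of reads, not normalized. The deposited percent restates it over all aligned reads and was used as a check. The authors' other columns give bases deleted, inserted and substituted, and the modified call. Depth was 380601 to 447620 aligned reads for each library.

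Bases were compared at ungapped positions, weighted by reads, and unknown bases were left out. Usual coverage was positions 10 to 232 at Site 7 and 2 to 198 at Site 9, and 99.4% to 99.8% of indel-free reads spanned it. Near the cut means within 3 bp and far means beyond 10 bp, or 40 bp against indel-bearing reads. The predicted cut lies 3 bp inside the protospacer from the PAM. Amplicons were located on mm9 by exact search of the labelled chromosome. Wilson intervals (95%) and the limit of 3 reads behind a count of 0 reflect counting error alone, since reads amplified by PCR without molecular identifiers do not each stand for a molecule. Sites were compared by exact two-sided permutation of libraries, and ratios were tested against 1 by exact sign flips of log2 values. The threshold on p was 0.05, which neither exact test could reach with 4 libraries. The smallest Benjamini-Hochberg adjusted p over 17 tests was 0.354. Named alleles are the reference and the 5 most abundant by mean share, and named positions are the 5 highest. Members, lists and tests were chosen with earlier results of these data known. Python 3.11.15, numpy 2.4.6, pandas 2.3.3 and scipy 1.17.1 were used, and the calculations were tested on simulated alleles. Alternatives covered minimum reads, substitutions per read, end positions, unknown bases, coverage, the call, the unit of counting, windows and left-out libraries.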

Additional observations from a re-analysis of the deposited data

How the results depend on the processing

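Of 150 values recomputed under alternatives, 142 kept their direction, 8 reversed and 33 moved by more than 1.5 times. The smallest p of the exact tests was 0.125, the smallest that 4 libraries allow, so no test could pass the threshold under any alternative. Counting each distinct allele once, which gives a sequence seen in 1 read the weight of the reference, reversed 4 comparisons. The Site 9 minus Site 7 difference became 2.66 for the substitution rate per 1000 bases (-4.97 over reads) and 1.22 percentage points for near-substituted reads over aligned reads (-0.036). The far ratio of indel-free to indel-bearing reads became 1.39 (0.774), and its difference between sites became 1.19 on the log2 scale (-0.23). The same counting took the difference in the indel-free share to 8.68 points (34.7) and in the reference-identical share to 0.161 (77.2). Between 63.3% and 86.0% of indel-free alleles had 1 read. In reads called unmodified, where substitutions next to the cut are absent by construction of the call, the difference in the transition share became 6.53 points (-29.1) and that in the reference-identical share 14.1. Near-substituted reads over aligned reads also reversed, to 0.0801 with a 10 bp window, 0.111 without Site 7 replicate 2 and 0.161 without Site 9 replicate 2. A minimum of 10 reads for each allele left no far substitution at Site 7, so it gave no far ratio. The alternatives for near-substituted reads over aligned reads and for the sides of the cut, and the far ratio of 0.931 with 1 contiguous deletion and at most 5 substitutions, were added after the data were seen.

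With the replicate number as a block, the differences between sites were unchanged, such as 34.7 points for the indel-free share and -80.3 for reads with a near-cut substitution, and the smallest p was 0.5. The libraries share only a number: deviations from the site mean over 8 results correlated at 0.25 for equal numbers and -0.25 for different ones. With 2 libraries for each site the second value is always the first with its sign changed, so it adds nothing. Site 7 rates beyond 10 bp rest on 295 and 365 substituted bases, which limits single positions there.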
